A study of Mus musculus with 4 samples.

Results

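The genes described here are 39 epithelial genes: keratins, genes of tight junctions and desmosomes, and epithelial regulators, with the enamel matrix genes left out. They were chosen by symbol from a fixed list, and all 39 were found among the 23107 genes of the tables. The RNA came from tdTomato-positive cells sorted by flow cytometry from dental follicles of mouse mandibular molars, and the labels call these cells PTHrP+. All animals received tamoxifen on postnatal day 3 and were collected on postnatal day 8. One group, cHet, is a conditional heterozygote for Ptch1 with the genotype Ptch1(+/-) (n = 2 libraries), and the other, cKO, is a conditional knockout with the genotype Ptch1(-/-) (n = 2 libraries). Ptch1 encodes the receptor that keeps hedgehog signalling off when no ligand is bound. The labels do not name the driver of the recombinase, and they do not say whether animals were pooled. The libraries are called cHet_0, cHet_1, cKO_0 and cKO_1, as the table columns are, and cHet and cKO stand for the labels throughout. Because the columns count from 0 and the sample titles from 1, a column was given its group but not a single sample.

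Epithelial cells are held together by cadherin contacts, tight junctions and desmosomes, and their cytoplasm carries a network of keratin filaments, each built from a type I and a type II keratin. Basal cells of layered epithelia use the pair KRT5 and KRT14, whereas simple, single-layered epithelia use KRT8 and KRT18. The tooth has its own epithelium, the enamel organ, which secretes enamel and lies next to the follicle, and its downgrowth, the root sheath, later breaks up within the follicle. The dental follicle itself is mesenchyme.

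Scaled counts, the deposited counts per gene after division by a factor for each library, totalled between 69361760 and 71228342 per library, and between 9850 and 12360 genes had an FPKM of at least 1. The library with the lowest number of genes was cHet_1. Ptch1, the targeted gene, was at 12867 and 5438 in cHet against 22420 and 23341 in cKO. Since a count over the whole gene includes exons outside a deletion, and the labels do not say which exons were removed, these values do not check the genotype. Pthlh, the PTHrP gene that marks the sorted cells, was at 9253, 15879, 12267 and 8613 in the same order. The 10 mesenchymal markers held 11.1% of the scaled counts in cHet_0, 11.9% in cHet_1, 8.07% in cKO_0 and 7.76% in cKO_1. The collagen genes Col1a1, Col1a2 and Col3a1 supplied most of this (10.6%, 11.4%, 7.68% and 7.42%), and the other 7 markers held 0.448%, 0.554%, 0.389% and 0.339%. With an adjusted p of 0.05 as the threshold, limma called 0 of 14297 genes in either direction, whereas 220 genes with higher and 213 with lower values in cKO had an unadjusted p below 0.05. No member passed the test, so the values below describe libraries.

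The 39 genes together made up 0.302% of the scaled counts in cHet_0, 0.369% in cHet_1, 0.14% in cKO_0 and 0.55% in cKO_1. The lowest and the highest library were thus both cKO libraries, and the groups overlapped. In bulk RNA, fewer epithelial cells and less RNA per cell cannot be told apart. The 8 keratins alone summed to 103673, 123280, 49850 and 237328 scaled counts in the same order, and the other 31 genes to 105870, 139757, 47463 and 151587. Both sums were lowest in cKO_0 and highest in cKO_1, and they were close to each other in cHet_0 and cKO_0. In summed FPKM the keratins exceeded the other genes in every library, at 840, 1120, 421 and 1820 against 554, 494, 226 and 571. The 8 enamel matrix and ameloblast markers had another order, with 0.714%, 1.94%, 1.35% and 3.64% of the scaled counts: there cHet_0 was lowest, and cKO_0 lay between the cHet libraries. Ambn, which encodes the enamel protein ameloblastin, was at 165646, 394081, 376029 and 976072, and Amelx, the amelogenin gene, at 275248, 698812, 499696 and 1334660. Amtn, the gene of the maturation-stage protein amelotin, was at 455.1, 16.74, 312.4 and 5542. In FPKM, Ambn per Cdh1 was 33.0 in cHet_0, 39.5 in cHet_1, 334 in cKO_0 and 141 in cKO_1, with both cKO libraries higher. Per FPKM of Krt14, Ambn was at 6.34, 2.96, 38.2 and 6.18, so that the groups overlapped and cKO_0 alone was high.

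**Figure D1:**
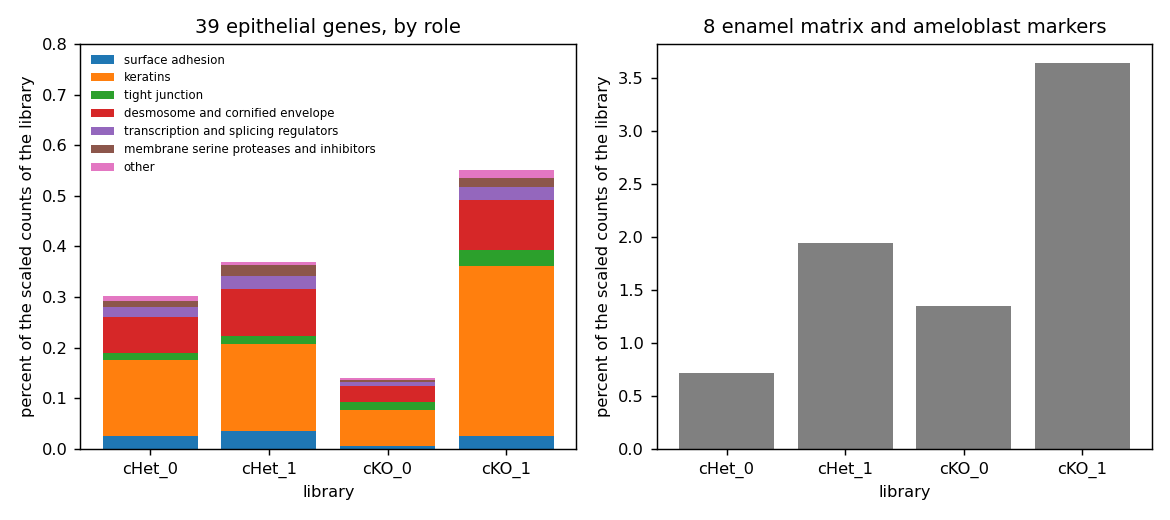
Share of all scaled counts (percent, y axis, from 0) in each of the 4 libraries (x axis) held by the 39 epithelial genes, stacked by role (left), and by 8 enamel matrix and ameloblast markers (right, with its own y axis). The epithelial genes are lowest in cKO_0 (0.14%) and highest in cKO_1 (0.55%), and the enamel markers are lowest in cHet_0 (0.714%).

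Most members shared the lowest library of the sum, whereas the highest library varied among them. Of the 39 members, 35 passed the filter on low values, and 24 of these 35 (68.6%) were lowest in cKO_0, against 18.6% of all genes tested. The highest value was in cKO_1 for 15 members, in cHet_1 for 12, in cHet_0 for 4 and in cKO_0 for 4. Among the 23 members whose mean reached 1000 scaled counts, 20 (87%) were lowest in cKO_0, against 20.7% of all genes of that abundance. Within the cKO group, 30 of the 35 tested members had a higher value in cKO_1 than in cKO_0, with a median difference of 1.57 on the log2(scaled count + 3) scale. Over all genes tested that median difference was -0.05, with 6779 of 14297 higher in cKO_1. With cHet_1 left out, 27 of 35 members (77.1%) were lowest in cKO_0 against 31.7% of all genes, and in FPKM 19 of 35 (54.3%) against 9.53%. The members share libraries and, where they come from the same cells, their source, so these counts are descriptions and not independent observations.

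**Figure D2:**
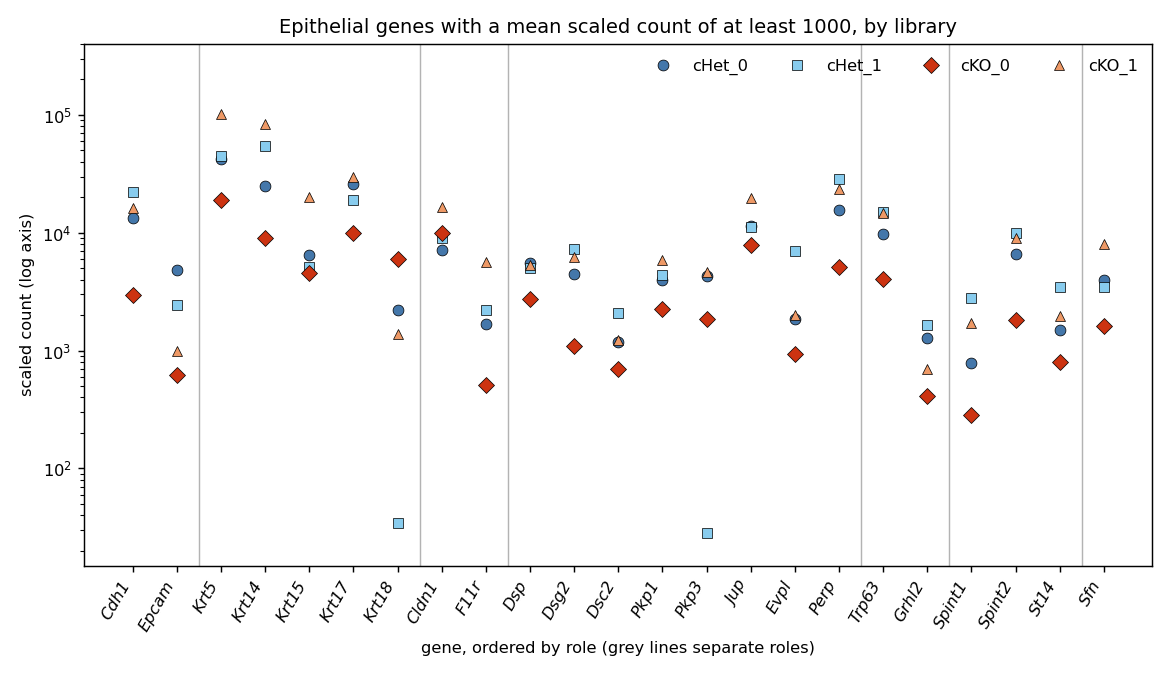
Scaled count (y axis, log scale) of the 23 members with a mean of at least 1000 in each of the 4 libraries (symbols), with genes on the x axis ordered by role. The cKO_0 symbol is the lowest for 20 of the 23 genes, and Krt18 and Pkp3 are far below their other values in cHet_1.

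Between the groups, 3 of the 35 tested members (8.57%), Krt19, Cldn1 and Prss8, had both cKO values above both cHet values, as 18% of all genes tested did. Another 3 (8.57%), Epcam, Grhl2 and Rab25, had both cKO values below both cHet values, as 14.2% of all genes did. Both shares were below the background. The remaining 29 overlapped. The median log2 fold change over the 35 (cKO minus cHet) was -0.21, with 14 above and 21 below 0, against a median of 0.12 over all genes. This median was 0.80 without cKO_0 and -1.19 without cKO_1, so that it changed direction with the cKO library used. In FPKM the groups did not overlap for 7 members lower in cKO (20%), against 8.73% of all genes, and for 2 higher (5.71%), against 11.5%.

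Cdh1 encodes E-cadherin, the adhesion protein of epithelial contacts (chromosome 8, 106603351 to 106670246, mm10). It had scaled counts of 13278 and 22013 in cHet against 2955 and 16349 in cKO. The cKO_0 value stood apart from the other 3, and cKO_1 lay between the cHet libraries. The log2 fold change was -1.30 (SE 0.69, limma adjusted p = 0.913). Without cKO_0 it was -0.06, and without cKO_1 it was -2.53. In FPKM, which also takes transcript length into account, Cdh1 was at 41.9 and 41.9 in cHet against 9.31 and 33.3 in cKO, so that on this scale the groups did not overlap.

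Epcam encodes an epithelial surface glycoprotein widely used as a sorting marker (chromosome 17, 87635979 to 87651129). Its scaled counts were 4828 and 2448 in cHet against 620.6 and 1002 in cKO, or 3640 ± 1680 and 811 ± 270 (mean ± SD, n = 2 each). Both cKO libraries were below both cHet libraries. The log2 fold change was -2.12 (SE 0.68), with an unadjusted limma p of 0.0144 and an adjusted p of 0.913. At an unadjusted limma p under 0.05, Epcam was the 1 member of 35 (2.86%) with lower values in cKO, against 1.49% of all genes, and 0 members had higher values, against 1.54%. In FPKM it was at 37.0, 9.23, 4.76 and 4.13 in cHet_0, cHet_1, cKO_0 and cKO_1. Per FPKM of Cdh1, Epcam was at 0.883 in cHet_0, 0.22 in cHet_1, 0.512 in cKO_0 and 0.124 in cKO_1, so the ratio of the pair overlapped between the groups. The 250 bases before its start site (RefSeq, GRCm38.p6, chr17:87635729-87635978, plus strand) are shown because Epcam is the member with the lowest p. Capitals mark CACCTG or its reverse complement CAGGTG, the E-box letters that repressors of the epithelial state such as Snail and ZEB proteins recognise:
Epcam: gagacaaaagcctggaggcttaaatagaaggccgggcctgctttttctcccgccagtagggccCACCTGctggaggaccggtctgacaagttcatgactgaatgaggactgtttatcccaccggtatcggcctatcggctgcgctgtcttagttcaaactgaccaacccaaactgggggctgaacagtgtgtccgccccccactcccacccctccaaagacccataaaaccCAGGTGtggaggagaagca
The matches begin at -187 and -19, where -1 is the base before the start.

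Krt5 (chromosome 15, 101707070 to 101712898) and Krt14 (chromosome 11, 100203162 to 100207548), the basal keratin pair, were the most abundant members. Krt5 had scaled counts of 42323 and 44988 in cHet against 19105 and 102496 in cKO. Its cHet libraries nearly coincided, and the cKO libraries lay on either side of them, 5.36-fold apart. Krt14 was at 24804 and 54315 in cHet against 9079 and 83386 in cKO, with the cKO libraries 9.18-fold apart. The log2 fold changes were 0.02 (SE 0.64) for Krt5 and -0.42 (SE 0.87) for Krt14. Without cKO_1, Krt14 was at -2.01, and without cKO_0 at 1.18. In FPKM, Krt14 was at 218, 559, 81.5 and 758 in cHet_0, cHet_1, cKO_0 and cKO_1, and the mesenchymal intermediate filament gene Vim at 320, 247, 305 and 208. Krt14 therefore exceeded Vim per length in cHet_1 and cKO_1 and was below it in cHet_0 and cKO_0.

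Krt15, a type I keratin of basal cells, and Krt17, a type I keratin of stressed and appendage epithelium, lie with Krt14 and Krt19 on chromosome 11. Krt15 was at 6500 and 5121 in cHet against 4539 and 20029 in cKO, with cKO_1 alone high. Krt17 was at 26016 and 18809 in cHet against 9943 and 29555 in cKO, with cKO_0 alone low. A coding transcript of Krt17 matches a Krt14 transcript over 756 bases at 91.0% identity. That Krt14 transcript is annotated as processed and not as coding, and reads from this stretch may be split between the genes.

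The keratins of simple epithelia were lowest in cHet_1 and not in cKO_0. That library was also the lowest for 43.3% of all genes tested and for 10 of the 35 tested members (28.6%). Krt18 (chromosome 15, 102028180 to 102032027) was at 2206 and 34.53 in cHet against 5974 and 1380 in cKO. It was highest in cKO_0, the library where Krt5 and Krt14 were lowest, and close to absent from cHet_1. Its log2 fold change of 3.32 (SE 1.80) was 0.38 without cHet_1 and 6.26 without cHet_0. Krt8, its type II partner (chromosome 15, 101996698 to 102004482), was at 1691 and 12.56 in cHet against 908.2 and 283.7 in cKO, also with cHet_1 lowest. In FPKM, Krt18 per Krt14 was 0.107 in cHet_0, 0.000625 in cHet_1, 0.787 in cKO_0 and 0.0177 in cKO_1. Krt7, a type II keratin of glandular epithelium, was at 97.98, 0, 204.7 and 3.404 in the same order of libraries, and Krt19, a type I keratin without a long tail, at 36.44, 1.046, 96.96 and 195.2. Like Krt18, Krt7 and Krt19 were lowest in cHet_1, and Krt7 was highest in cKO_0. Processed pseudogenes match Krt8 at 98.6% identity over 941 bases and Krt18 at 90.45% over 1267 bases, so both values are uncertain where reads could be placed in either copy.

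The sequences before the start of Krt5 (chr15:101712906-101713155, minus strand) and Krt18 (chr15:102027966-102028179, plus strand) are set beside each other because Krt5 was lowest and Krt18 highest in cKO_0 (RefSeq, GRCm38.p6, capitals as for Epcam):
Krt5: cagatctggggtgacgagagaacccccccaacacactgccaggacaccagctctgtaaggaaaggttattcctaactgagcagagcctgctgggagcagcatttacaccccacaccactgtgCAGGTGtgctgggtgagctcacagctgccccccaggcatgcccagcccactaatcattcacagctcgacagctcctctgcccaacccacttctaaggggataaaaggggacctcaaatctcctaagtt
Krt18: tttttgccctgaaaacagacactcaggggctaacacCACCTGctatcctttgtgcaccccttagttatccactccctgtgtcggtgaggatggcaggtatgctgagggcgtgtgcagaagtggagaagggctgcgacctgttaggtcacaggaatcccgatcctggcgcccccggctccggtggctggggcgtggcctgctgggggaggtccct
Each holds 1 match, beginning at -128 in Krt5 and at -214 in Krt18. Positions count from the RefSeq start. The last 36 bases of the Krt18 window lie inside the gene as GENCODE annotates it and are not printed, and the windows of Krt8, whose match lies inside the annotated gene, and of Krt14, which begins inside it, are not shown. Of the 39 members, 21 were matched to this table by symbol, with 25 windows. CACCTG in either orientation was in 14 of the 25 windows, belonging to 13 genes, and in 17.2% of all 32851 windows of the same length. In all, 8 motifs were searched on both strands, chosen after the values were seen, and matches of different motifs could overlap. GGGCGG or its reverse complement CCGCCC, the letters of a GC box, was in 14 windows against 32.7% of all, and TATAAA or TTTATA in 0 against 12.4%. TGANTCA was in 2 windows (6.75% of all) and ACATGN in 2 (28.1%). A loose form of the p53-family pair of half-sites was in 14 (63.5%), and 1 further gapped motif in 0 (0.0883%). The grainyhead-like letters, the last of the 8, are given with Rab25 and Sfn. A match is a description of letters and not of a bound site.

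**Figure D3:**
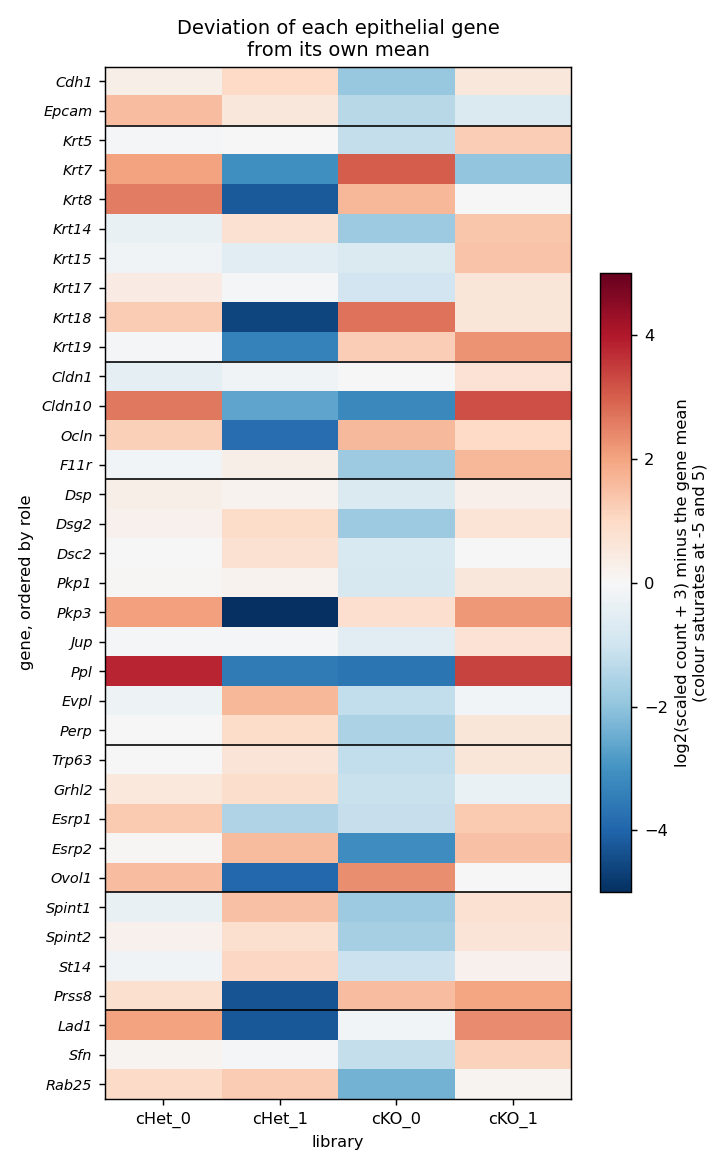
Colour gives log2(scaled count + 3) of each of the 35 tested members (rows, ordered by role, black lines between roles) in each library (columns) minus the mean of that gene over the 4 libraries. Blue fills most of the cKO_0 column, while Krt7, Krt8, Krt18, Ocln and Ovol1 are red there and dark blue in cHet_1.

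Of 8 tight junction genes, 4 passed the filter. Cldn3, Cldn4 and the scaffold gene Tjp3 were listed at 0 in every library, and Cldn7 was at 37.25, 0, 1.077 and 0. Cldn1 encodes claudin 1, a sealing protein of skin-type barriers (chromosome 16, 26356642 to 26371841). Its scaled counts were 7205 and 8981 in cHet against 10021 and 16586 in cKO, with both cKO libraries above both cHet libraries. The log2 fold change was 0.68 (SE 0.33, limma adjusted p = 0.913), and it was 0.32 without cKO_1. In FPKM Cldn1 was at 34.4, 13.1, 46.6 and 29.1, so that the groups overlapped. Cldn1 was the only member with a mean of at least 1000 whose lowest value was in cHet_0. F11r, which encodes the junctional adhesion molecule JAM-A, was at 1666 and 2227 in cHet against 508.5 and 5650 in cKO, a spread of 11.1-fold within cKO. Ocln, the occludin gene, was at 320.7, 7.326, 436.3 and 282.5, close to absent from cHet_1. Cldn10, which encodes a claudin that forms ion channels, was at 361.9, 6.279, 3.232 and 537.9, present in 1 library of each group.

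The desmosome anchors a keratin filament to its neighbour cell through cadherins, armadillo proteins and plakins. Of 9 members of this role, 8 were lowest in cKO_0. Dsp, the gene of the plakin desmoplakin (chromosome 13, 38151294 to 38198577), varied least: 5505 and 5029 in cHet against 2765 and 5373 in cKO, a 1.99-fold range. The desmosomal cadherin genes Dsg2 and Dsc2 lie on chromosome 18. Dsg2 was at 4492 and 7324 in cHet against 1094 and 6268 in cKO, and Dsc2 at 1182 and 2066 against 704.6 and 1235. For both, cKO_0 was lowest and cHet_1 highest.

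Among the armadillo proteins, Jup (plakoglobin, shared by desmosomes and cadherin contacts) was at 11416 and 11095 in cHet against 7949 and 19622 in cKO. Pkp1, a plakophilin of layered epithelia, was at 4005 and 4389 in cHet against 2254 and 5817 in cKO. For both genes the cHet libraries were close together and the cKO libraries enclosed them. Pkp3, a more widely used plakophilin, was at 4268 and 28.26 in cHet against 1846 and 4621 in cKO, close to absent from cHet_1. Its log2 fold change of 3.0 (SE 1.98) was 6.55 without cHet_0 and -0.55 without cHet_1.

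The plakins of the cornified envelope, Evpl (envoplakin) and Ppl (periplakin), encode proteins that pair with each other, and their values took different orders over the libraries. Evpl was at 1861 and 7064 in cHet against 939.5 and 2023 in cKO, highest in cHet_1. Ppl was at 1673 and 7.326 in cHet against 6.464 and 1241 in cKO, close to absent from cHet_1 and cKO_0. Evpl had the lowest p of this role (log2 fold change -1.39, SE 0.75), with an unadjusted limma p of 0.0995 and an adjusted p of 0.913. Its fold change was -0.43 without cHet_1 and -0.84 without cKO_0. Perp, a membrane protein gene of desmosomes and a target of p63 (chromosome 10, 18845020 to 18857073), was at 15649 and 28492 in cHet against 5162 and 23522 in cKO. Perp was at -2.03 without cKO_1 and at 0.16 without cKO_0.

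Of the 5 regulators, Trp63 encodes p63, the transcription factor of layered epithelia (chromosome 16, 25683763 to 25892102). It was at 9680 and 14915 in cHet against 4080 and 14630 in cKO, with cKO_0 low and cKO_1 close to cHet_1. Grhl2, a grainyhead-like factor that activates Cdh1 and other junction genes (chromosome 15, 37233036 to 37363569), was at 1290 and 1653 in cHet against 413.7 and 702.4 in cKO. Both cKO libraries were below both cHet libraries, with a log2 fold change of -1.43 (SE 0.95), an unadjusted limma p of 0.168 and an adjusted p of 0.913. Ovol1, a zinc finger repressor, was at 176.5, 1.046, 309.2 and 60.14 in cHet_0, cHet_1, cKO_0 and cKO_1.

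The splicing regulators Esrp1 and Esrp2, which direct epithelial splice forms, differed from each other most in cHet_1, where the FPKM of Esrp2 was 26.1 times that of Esrp1, against 0.465 in cHet_0, 0.29 in cKO_0 and 2.86 in cKO_1. Esrp1 was at 1498 and 208.3 in cHet against 271.5 and 1505 in cKO, whereas Esrp2 was at 486.6 and 1437 in cHet against 52.79 and 1306 in cKO. Both were low in cKO_0, and only Esrp1 was also low in cHet_1. Esrp2 shares exon bases with Nfatc3 on the other strand, and the sources used here do not say if reads were counted by strand.

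The membrane serine protease genes St14 (matriptase) and Prss8 (prostasin) act together in epithelial barriers, and Spint1 and Spint2 encode their Kunitz-type inhibitors. Spint2 was at 6620 and 10042 in cHet against 1819 and 9043 in cKO. Spint1 was at 777.3 and 2793 in cHet against 285.5 and 1704 in cKO, and St14 at 1483 and 3465 against 800.5 and 1974. All 3 were lowest in cKO_0 and highest in cHet_1. Spint2 had a log2 fold change of -1.01 (SE 0.67), which was -2.16 without cKO_1 and 0.15 without cKO_0. Prss8 was at 102.8, 0, 174.5 and 232.6, and its fold change of 3.52 (SE 2.64) was 0.95 without cHet_1. An exon of Prss8 overlaps Kat8 on the other strand.

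Of the other members, Sfn encodes 14-3-3 sigma, an adaptor protein of layered epithelia, and was at 3984 and 3465 in cHet against 1602 and 8009 in cKO. Processed pseudogenes match Sfn at up to 97.5% identity. Lad1, a gene of the basement membrane zone, was at 1549 and 17.79 in cHet against 346.9 and 2023 in cKO. Rab25, a small GTPase of epithelial membrane recycling (chromosome 3, 88542029 to 88548300), was at 476.1 and 581.9 in cHet against 44.17 and 267.8 in cKO, with both cKO libraries lower. The log2 fold change of Rab25 was -2.23 (SE 1.85), with an unadjusted limma p of 0.264 and an adjusted p of 0.913, and it was -0.97 without cKO_0. The sequences before Rab25 (chr3:88548301-88548529, minus strand, without 21 bases inside the annotated gene) and Sfn (chr4:133602169-133602418, minus strand) are shown because they are the 2 members whose window holds AACCNGTT or its reverse complement AACNGGTT, the letters recognised by grainyhead-like factors, found in 1.79% of all windows (RefSeq, GRCm38.p6, capitals mark the match):
Rab25: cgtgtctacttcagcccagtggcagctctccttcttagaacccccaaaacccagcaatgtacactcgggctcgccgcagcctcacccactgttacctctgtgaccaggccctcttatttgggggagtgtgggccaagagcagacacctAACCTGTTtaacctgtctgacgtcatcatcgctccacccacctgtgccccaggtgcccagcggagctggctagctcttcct
Sfn: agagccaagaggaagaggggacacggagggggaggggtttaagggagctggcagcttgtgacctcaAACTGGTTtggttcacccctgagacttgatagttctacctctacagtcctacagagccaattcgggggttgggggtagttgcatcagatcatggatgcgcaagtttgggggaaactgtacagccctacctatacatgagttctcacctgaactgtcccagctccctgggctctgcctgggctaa
The groups overlapped for Sfn, and whether a grainyhead-like factor acts on either gene was not tested.

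**Figure D4:**
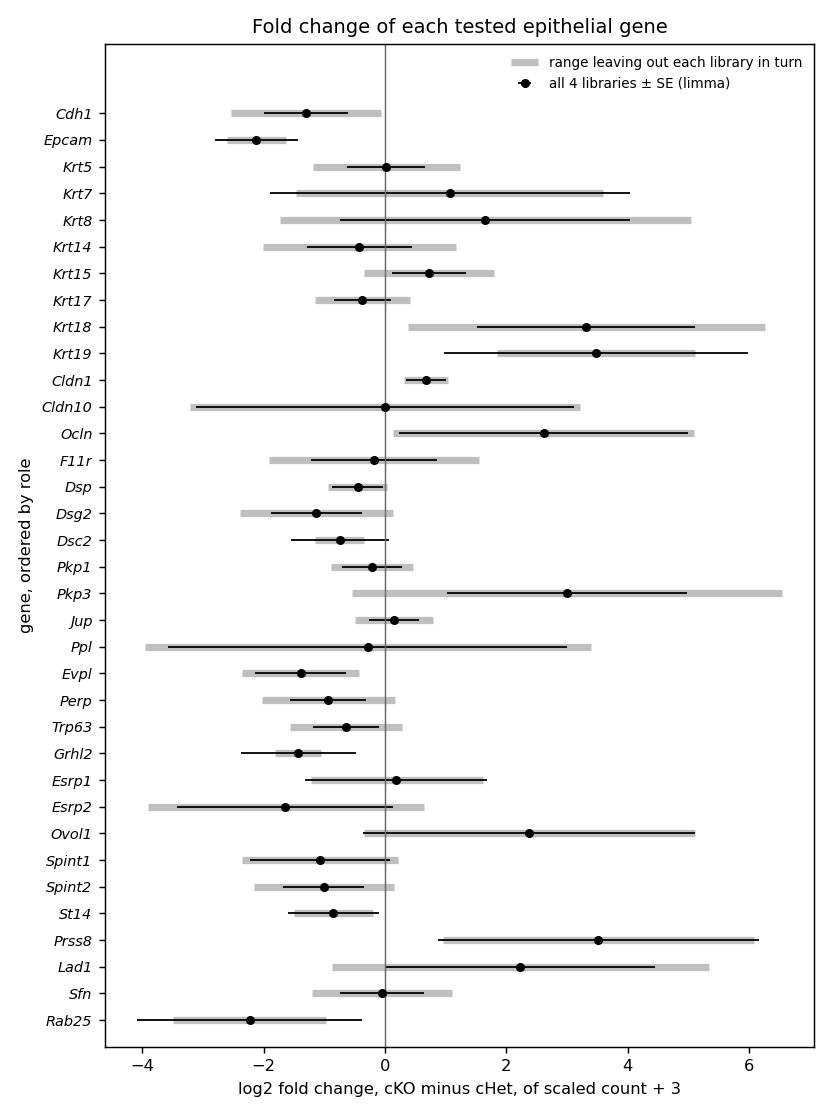
Log2 fold change (x axis, cKO minus cHet, of scaled count + 3) of each of the 35 tested members (y axis, ordered by role), as a point with its limma standard error, over a grey bar that spans the values with each library left out in turn. The bar crosses 0 for 23 members, and the point is -2.12 for Epcam and 0.02 for Krt5.

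Near-absence in 1 library was most frequent in cHet_1. Of 28 members that reached a scaled count of 100 everywhere else, 6 were under 50 in cHet_1 (21.4%): Krt8, Krt18, Ocln, Pkp3, Prss8 and Lad1. Over all genes the same held for 1427 of 11559 (12.3%). In cHet_0 and cKO_1 it held for 0 of 22 members each, against 0.17% and 1.23% of all genes. In cKO_0 it held for 1 of 24, Rab25 at 44.17, against 0.824% of all genes.

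Other genes of the same pathway, taken from lists, gave 0 calls in either direction. Of 25 other junction and hemidesmosome genes, 20 were tested, 8 with a fold change above 0 and 12 below, with a median of -0.29. In this list 9 of 20 were lowest in cKO_0 (45%). Col17a1, the hemidesmosome collagen, was at 10659 and 14965 in cHet against 4357 and 20367 in cKO, lowest in cKO_0 and highest in cKO_1. Cldn12, a claudin gene, had the lowest p of this list and was at 2757 and 8638 in cHet against 1176 and 1572 in cKO, with both cKO libraries lower.

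Of 12 other epithelial transcription factors, 10 were tested, 2 above and 8 below 0, with a median of -0.76, and 6 of 10 were lowest in cKO_0. Sp6, a factor of the enamel organ, was at 62019 and 42274 in cHet against 8564 and 19050 in cKO, with both cKO libraries lower (log2 fold change -2.0, SE 0.39, limma adjusted p = 0.913). Ovol2, related to Ovol1, was at 42.11 and 3.14 in cHet against 286.6 and 458.4 in cKO. The 6 repressors of the epithelial state had fold changes from -0.57 to 0.52. The value of -0.57 was that of Zeb1 (SE 0.78), which was at 1670 and 709.2 within cKO. With such spread within a group, these fold changes do not show that the groups were alike. Twist1 was at 13012 and 15602 in cHet against 16320 and 16641 in cKO, and Zeb2 at 14188 and 26393 against 18977 and 13960. Snai2 was at 4291 and 4643 against 4613 and 2061, and Twist2 at 3364 and 1675 against 3644 and 3173. Of the 6, Twist1 alone had groups that did not overlap, with higher values in cKO, as 18% of all genes tested did. In FPKM Twist1 was at 134 and 104 in cHet against 175 and 129 in cKO, so that the groups overlapped. Of 12 other keratins, 7 were tested, 4 above and 3 below 0. Krt80 was at 1841 and 2891 in cHet against 8.619 and 929.3 in cKO, and Krt6a at 801.6 and 819.4 against 699.2 and 2119. Krt16, a keratin of stressed layered epithelium, was at 93.93 and 48.14 in cHet against 6.464 and 4.539 in cKO.

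Markers of further cell types also differed between these libraries, and their part in the epithelial values was not tested. The 7 Schwann cell markers summed to 3439 and 689.6 in cHet against 7230 and 23053 in cKO, and all 7 had a fold change above 0. The 8 leukocyte markers summed to 1078 and 6889 in cHet against 1137 and 10467 in cKO, and the 8 endothelial markers to 2450 and 6387 against 3710 and 10867. Of the tested markers, 5 of 8 leukocyte and 6 of 7 endothelial genes had a fold change above 0. The leukocyte sum was thus low in cHet_0 and cKO_0, and the defining leukocyte gene Ptprc was at 0.8097, 0, 62.49 and 76.03. Adgre1, among the 3 leukocyte markers with a fold change below 0, was at 36.44 and 203.0 in cHet against 0 and 2.269 in cKO. Pecam1, the defining endothelial gene, was at 0, 5.233, 299.5 and 1278. Kdr, an endothelial marker of higher mean, was at 1900, 4054, 1944 and 3145, so that the groups overlapped. The 7 pericyte and smooth muscle markers summed to 77945 and 73104 in cHet against 76177 and 93531 in cKO.

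The deposited FPKM scale moved several members relative to the scaled counts. Scaled count per FPKM, set to that of cHet_0, had a median over all genes of 1.71 in cHet_1, 1.0 in cKO_0 and 1.58 in cKO_1, and over the members of 1.15, 0.984 and 1.19. For Cdh1 the ratio was 1.66 in cHet_1 and 1.55 in cKO_1, and for Perp 2.84 and 2.46. Cdh1, Dsg2, Perp and Trp63 overlapped between the groups in scaled counts and were lower in both cKO libraries in FPKM. Trp63 was at 33.6 and 32.9 FPKM in cHet and 14.4 and 31.6 in cKO, so that cKO_1 was close to the cHet libraries on either scale.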

How the data were processed

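Per the labels' protocols, cDNA of the sorted cells was made with a low-input SMART-Seq kit and sequenced after Nextera XT library preparation. The submitters' processing notes name mm10, FastQC, HTSeq, DESeq2, Cufflinks and Cuffdiff, as well as Bowtie2 2.2.1 and TopHat2 2.0.13, without their roles. Scaled counts, a signal unit, were deposited as counts per gene already divided by a library factor, and how the authors set it is not stated. FPKM values, per length and library size, were deposited by the authors in a second table. A further 16 per-sample columns in 4 tables match no label and were not used.

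On log2(scaled count + 3), limma 3.58.1 in R 4.3.3 compared the groups, with the prior variance following mean expression. Of all genes, 14297 reached 10 in 2 or more libraries and were tested. Two-sided p-values were adjusted by Benjamini-Hochberg over these genes (threshold 0.05). Fold changes on this scale understate those of low genes. The median SE of the members was 0.87. Separate animals are not stated for the libraries of a group, and a p-value here reflects only how these libraries vary, which may be technical. The fit was run on simulated counts with a fixed spread. That spread was not estimated from these libraries, so the simulation does not show how the fit performs on them. The members, lists and rules were chosen with earlier results of these data known. Every member whose mean reached 1000 scaled counts was to be given in full, and of each other list the 2 genes with the lowest p and the 2 with the highest mean. Vim was added after its values were seen, and marker lists other than enamel are given mainly as sums. Some genes that this rule names are not reported here. All 142 list entries were matched, 3 of them by a RefSeq synonym. Coordinates are from GENCODE vM21 (GRCm38, the assembly of mm10), 1-based, and near-identical transcripts were sought there with BLAST. Alternatives changed the pseudocount, filter, scaling, unit, block and libraries.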

Additional observations from a re-analysis of the deposited data

How the results depend on the processing

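With 2 libraries per group, precision depends on the spread between libraries, and the part of sequencing depth in that spread was not tested. Counts of genes called were 0 and 0 except with log2(FPKM + 1) (3 higher, 4 lower), with log2(FPKM + 0.1) (1 and 1), and when a library was left out, where they ranged from 0 to 1061 higher and from 0 to 78 lower. The 1061 and 78 came without cHet_0. With all libraries kept, no member was called in any setting. Without cHet_0, the fold changes of Krt18 and Pkp3 were 6.26 and 6.55. Without cKO_1, those of Cdh1, Krt14, Perp and Spint2 were -2.53, -2.01, -2.03 and -2.16. The members' median ranged from -1.19 to 0.80 with a library left out, and from -0.45 to -0.21 over the other settings. Median-of-ratios scaling moved the median of all genes from 0.12 to 0.02 and that of the members to -0.32. Of 274 values of single members with all libraries, 5 changed sign: Cldn10 with pseudocount 10 (0.13), Esrp1 with log2(FPKM + 1) (-0.10), and Krt5 with median-of-ratios scaling (-0.08) and both FPKM settings (-0.03 each). With a library left out, 23 members changed sign: Cldn10 (-3.22 to 3.22), Dsg2 (-2.39 to 0.13), Dsp (-0.93 to 0.03), Esrp1 (-1.22 to 1.61), Esrp2 (-3.91 to 0.64), F11r (-1.91 to 1.55), Jup (-0.50 to 0.80), Krt14 (-2.01 to 1.18), Krt15 (-0.35 to 1.80), Krt17 (-1.15 to 0.42), Krt5 (-1.19 to 1.23), Krt7 (-1.47 to 3.60), Krt8 (-1.73 to 5.04), Lad1 (-0.88 to 5.34), Ovol1 (-0.35 to 5.12), Perp (-2.03 to 0.16), Pkp1 (-0.89 to 0.47), Pkp3 (-0.55 to 6.55), Ppl (-3.95 to 3.39), Sfn (-1.21 to 1.11), Spint1 (-2.36 to 0.21), Spint2 (-2.16 to 0.15) and Trp63 (-1.56 to 0.28). The cause was not tested. Where a library is left out, the lone library of its group is assumed to vary like the other group. In alternatives chosen after seeing the data, 24 members lowest in cKO_0 became 27 of 35 without cHet_1 and 19 in FPKM, and 30 members higher in cKO_1 than in cKO_0 became 26 in FPKM. With the number in the column name as a replicate block, 0 genes were called, 0 members were called and the members' median was -0.21. Deviations of cHet_0 and cKO_0 from their group means correlated at 0.0486 across genes. Their values, however, correlated at 0.893, above cHet_0 with cHet_1 (0.791) and cKO_0 with cKO_1 (0.811). The pair cHet_1 and cKO_1 was at 0.742. The labels give libraries of the same number no other link, and whether they were handled together was not tested.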
